A study of Mus musculus with 16 samples.

Results

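Podocytes taken 4 days after the immunotoxin LMB2 were compared with podocytes of uninjured mice, 4 microarrays against 4. These 8 arrays were all those titled as podocytes at day 4 or as normal podocytes, out of 16 in the series. The other arrays held glomerular RNA of uninjured mice and podocyte RNA at day 7, and are used here as references for level and for time. Both groups carried RiboTag, an Rpl22 allele whose ribosomal protein gains an HA epitope once Cre recombinase has acted, and Cre driven by Nphs1, so that the tag was confined to cells that express nephrin. The normal group consisted of Nphs1-RiboTag mice. The injured group consisted of Nphs1-RiboTag-NEP25 mice, which in addition express human CD25 on podocytes, and which received 0.625 ng LMB2 per gBW once through the tail vein. All mice were C57BL/6N, and their age was not given in the sources used here. NEP25 mice without toxin and mice given vehicle were not among the arrays used, so genotype and toxin changed together. All uninjured arrays lay on 1 slide and all arrays of injured mice on another, each scanned once, so slide, genotype and toxin cannot be told apart. Whether the 4 arrays of a group came from 4 animals is not said in the labels; the p-values reflect variation among these samples only, and that variation may be technical.

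Podocytes are the epithelial cells whose interlocking foot processes and slit diaphragms form the outer layer of the glomerular filter. LMB2 joins an antibody fragment against CD25 to a bacterial toxin that ADP-ribosylates elongation factor 2 and so stops peptide elongation. Cells whose translation is arrested are known to superinduce immediate early genes and genes with unstable messages, since proteins that silence them or that degrade their messages are short-lived. The RNA measured was that on polysomes precipitated through the tag, so a level combines the abundance of a message with its presence on tagged ribosomes. In such bulk RNA, fewer cells of a type and less RNA per cell cannot be told apart.

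Levels are log2 processed intensities minus the 75th percentile of the array, so 0 is a bright probe on any array, and levels are compared only between arrays for the same gene. Differences are day 4 minus normal on the same log2 scale, with the standard error of the linear model (limma, n = 4 arrays per group), and a gene was called when its Benjamini-Hochberg adjusted p over 14575 genes was under 0.05. Between 49.3% and 54.0% of the spots of these 8 arrays were well above background. The 75th percentile of intensity was at least 260.3 on the normal arrays and at most 260.2 on the day 4 arrays. Replicate arrays correlated at 0.979 to 0.993 over the genes tested. The podocyte markers Nphs1, Podxl, Wt1 and Synpo were well above background on all 8 arrays. Detection alone cannot tell podocyte from glomerular RNA, where 37 of 37 slit diaphragm and foot process genes were above background on all 4 arrays. The mean level of these genes, set to 0 for normal podocytes, was -0.17 at day 4 and -1.13 in glomerular RNA.

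The change was lopsided in size rather than in number. Of 14575 genes, 1759 (12.1%) were called higher and 3155 (21.6%) lower at day 4, but 998 (6.85%) rose at least 2-fold against 211 (1.45%) that fell as far. At 8-fold or more the counts were 324 and 0, and 34 genes rose at least 100-fold. In 4967 genes (34.1%) the 4 normal and 4 day 4 arrays did not overlap. The median difference over all genes was -0.14. The split of calls depended on the alignment of arrays and on the model: 35.8% of the calls were higher as given, 16.9% when the median of all probes of each array was set to 0 (1183 higher, 5810 lower, median -0.39), 49.3% when the median of the genes tested was set to 0 (2025 higher, 2085 lower, median -0.05), 38.2% with the 8 arrays fitted alone, and 50.9% with a replicate block added to that fit. Small falls are therefore read against these values, and the large rises carry most of the description.

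**Figure D1:**
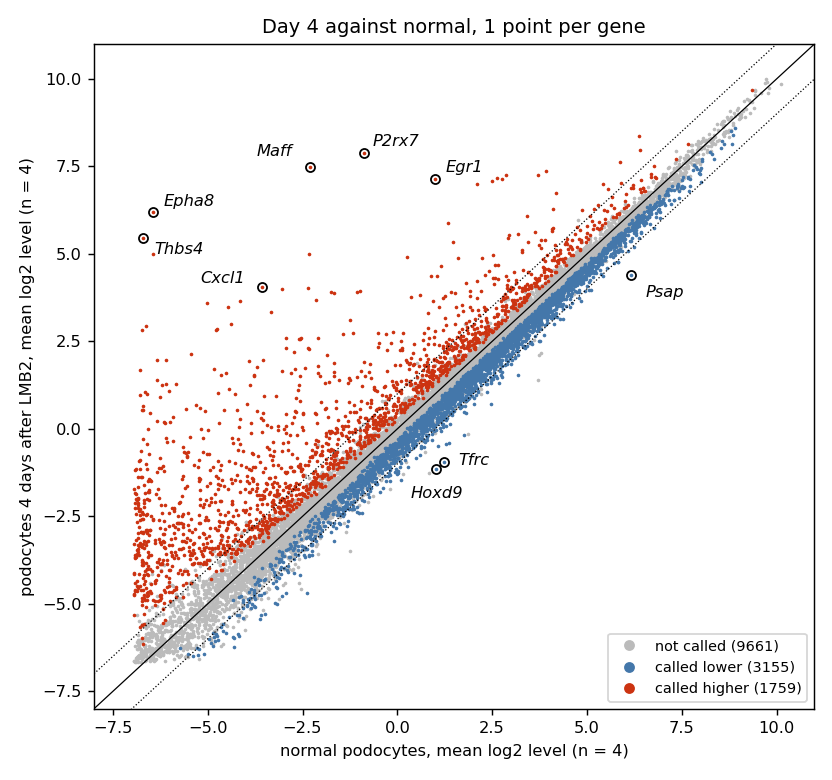
Mean log2 level of each of 14575 genes in normal podocytes (horizontal axis) and at day 4 (vertical axis), each over 4 arrays; the solid line marks equal levels and the dotted lines a 2-fold difference. Red genes were called higher (1759) and blue genes lower (3155); most of the far points lie above the line at low normal levels.

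The 998 genes that rose at least 2-fold had a median level of -4.18 in normal podocytes, against 1.02 over all genes, and -1.22 at day 4. Of them, 344 were well above background on no normal array and 464 on all 4. When all genes were ordered by their normal level and cut into 4 equal groups, 19.7% of the lowest group rose at least 2-fold, 4.77% of the next, 2.09% of the next and 0.878% of the highest. The falls were spread more evenly over these groups, at 1.87%, 1.67%, 1.56% and 0.686%. This gradient is partly built in and is given as a description: a gene dim in normal podocytes was tested only if another group had it above background, and the level used for the ordering is also subtracted in the difference. Among the 12421 genes well above background on all 8 arrays, 464 rose and 153 fell at least 2-fold, and 78 rose and 0 fell at least 8-fold. In glomerular RNA of uninjured mice 665 of the 998 genes were well above background on all 4 arrays and 217 on none.

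The 4 day 4 arrays differed in how far they stood from normal. Among the 998 rises, replicates 3 and 4 both lay above replicates 1 and 2 in 755 genes, and the reverse held in 17. The median distance from the normal mean was 1.93 in replicate 1, 1.93 in replicate 2, 2.42 in replicate 3 and 2.83 in replicate 4. Among the 211 falls the distances were -1.10, -1.02, -1.22 and -1.21. Leaving out any single array kept the call of 935 of the 998 rises and 166 of the 211 falls.

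Maff, a small Maf transcription factor that lacks an activation domain and pairs with larger bZIP proteins, had the largest rise among genes measured on every array. It read -2.16, -2.21, -2.50 and -2.29 on the normal arrays and 7.13, 7.03, 7.75 and 8.01 on the day 4 arrays. The difference was 9.77 ± 0.23, an 875-fold rise (adjusted p = 1.1e-12, limma). P2rx7, an ATP-gated cation channel, read -0.94, -0.85, -0.72 and -1.02 in normal podocytes and 7.49, 7.62, 8.14 and 8.30 at day 4. Its rise was 8.77 ± 0.20 or 436-fold (adjusted p = 1.1e-12) on the probe used, the highest of its 3 probes (6.84 to 8.77). Its mean level in glomerular RNA was 2.57, between both groups. Cxcl1, a neutrophil-attracting chemokine, read -3.16, -3.02, -3.99 and -4.15 and then 2.98, 4.10, 4.74 and 4.41. It rose by 7.64 ± 0.45, or 199-fold (adjusted p = 1.7e-08). Its readings on normal replicates 3 and 4 lay near the dimmest probes above background on those arrays (-4.31 and -4.34). Egr1, a zinc finger immediate early factor, read 0.78, 0.47, 1.87 and 0.88 and then 6.74, 6.46, 7.50 and 7.83. Its rise was 6.13 ± 0.52, or 70.2-fold (adjusted p = 6.1e-07). In all 4 genes every day 4 array lay above every normal array, and replicates 3 and 4 lay above replicates 1 and 2 at day 4.

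Promoter windows of 250 bases before the RefSeq start (GRCm38.p6) are printed for 3 of the markers because Maff, P2rx7 and Cxcl1 had the largest rises among genes measured on all 8 arrays, and only windows that show several sites or the NF-kappaB site are printed. No Egr1 window is shown. Capitals mark the matches, read on both strands, and positions count back from the start. In the Cxcl1 window (chr5:90890995-90891244, + strand) the capitals are 2 overlapping matches to the NF-kappaB site, at bases 71 to 62 and 70 to 61.
Cxcl1: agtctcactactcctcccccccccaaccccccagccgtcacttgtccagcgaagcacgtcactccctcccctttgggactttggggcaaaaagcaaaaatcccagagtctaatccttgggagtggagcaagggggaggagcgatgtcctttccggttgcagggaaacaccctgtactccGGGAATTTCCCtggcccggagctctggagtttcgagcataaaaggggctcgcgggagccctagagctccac
In the upstream P2rx7 window (chr5:122643677-122643926, + strand) they are an AP-1 site TGANTCA at bases 249 to 243, an antioxidant response element core TGACNNNGC at bases 88 to 80 and an Egr site GCGNGGGCG at bases 10 to 2, the latter pair on the reverse strand. Another P2rx7 window, at chr5:122650133-122650382, held no match to the motifs searched.
P2rx7: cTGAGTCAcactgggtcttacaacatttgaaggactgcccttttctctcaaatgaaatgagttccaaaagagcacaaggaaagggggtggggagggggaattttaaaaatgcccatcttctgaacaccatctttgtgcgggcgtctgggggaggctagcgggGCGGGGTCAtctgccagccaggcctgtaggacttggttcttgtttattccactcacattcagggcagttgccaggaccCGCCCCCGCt
Maff has 3 windows, of which the one at chr15:79346371-79346620 held an antioxidant response element core alone and is not printed. The window at chr15:79347270-79347519 (+ strand) holds an E-box CACGTG at bases 191 to 186, an Egr site at bases 88 to 80 and a cAMP response element TGACGTCA at bases 29 to 22.
Maff: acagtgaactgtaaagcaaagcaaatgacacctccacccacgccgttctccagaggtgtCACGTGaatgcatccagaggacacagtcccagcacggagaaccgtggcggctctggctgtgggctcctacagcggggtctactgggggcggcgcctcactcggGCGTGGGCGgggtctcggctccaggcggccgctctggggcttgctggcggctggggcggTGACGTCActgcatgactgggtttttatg
The next Maff window (chr15:79348152-79348401, + strand) holds an NF-kappaB site at bases 70 to 61.
Maff: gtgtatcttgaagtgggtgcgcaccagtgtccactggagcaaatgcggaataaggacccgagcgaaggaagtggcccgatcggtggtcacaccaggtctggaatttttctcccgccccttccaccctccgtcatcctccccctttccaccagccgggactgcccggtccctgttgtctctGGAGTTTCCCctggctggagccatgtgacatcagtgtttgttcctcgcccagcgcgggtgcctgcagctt
Such matches were common in other promoters too. Of the 14575 genes, 11583 had a window, and 5.44% of these held an NF-kappaB site, 5.81% an AP-1 site, 9.76% an Egr site, 13.8% an antioxidant response element core, 9.37% an E-box and 2.85% a cAMP response element. In genes that rose at least 8-fold the shares were 10.1%, 7.26%, 5.65%, 12.1%, 6.85% and 4.44%. In genes that fell at least 2-fold they were 6.29%, 6.29%, 11.9%, 13.8%, 6.29% and 3.14%. The median GC content of the windows was 59.0% over all genes, 54.4% for the 8-fold rises and 59.6% for the falls, and no test of these shares was made.

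Of the 7 tested genes directly beside a marker 3 were called higher and 0 lower, and of the 19 tested within 3 places 4 were called higher and 1 lower, against 12.1% and 21.6% over all genes. None of the tested neighbours of Maff was called: Pla2g6 differed by -0.06 and Tmem184b by -0.31 (adjusted p = 0.064). Tmem184b was called without normal replicate 4 (-0.39) or without day 4 replicate 2 (-0.37). Next to P2rx7 on one side, its paralogue P2rx4 differed by -0.16 ± 0.12 (adjusted p = 0.34), and on the other Ift81, an intraflagellar transport gene, rose by 1.43 ± 0.16 (adjusted p = 1.1e-05). Anapc5, a subunit of the anaphase-promoting complex and 3 places from P2rx7, rose by 0.75 ± 0.16 (adjusted p = 0.0025). Beside Cxcl1, the chemokine Cxcl2 was well above background on no normal array and on 3 of 4 day 4 arrays (adjusted p = 3.2e-06), and Mthfd2l, the next gene on that side, differed by -0.22 (adjusted p = 0.077). On the other side Cxcl15 and Cxcl3 were not tested. The neighbour of Egr1 on one side, Reep2, differed by -0.27 (adjusted p = 0.13). On the other side Etf1, a translation release factor, rose by 0.34 ± 0.10 (adjusted p = 0.014), a call lost without day 4 replicate 4, where the difference was 0.27 (adjusted p = 0.0525), and with array medians set to 0 (0.09, adjusted p = 0.57).

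After the markers, the genes with the largest rises among those measured on all 8 arrays came from unrelated families. Prr7, a proline-rich membrane adaptor, rose by 7.32 ± 0.27 (adjusted p = 1.4e-10), from at most -1.93 on the normal arrays to at least 4.38. Zmynd15, a zinc finger gene known from sperm development, rose by 7.03 ± 0.39 (adjusted p = 8.7e-09). Gem, a small GTPase that restrains calcium channels, rose by 6.69 ± 0.32 (adjusted p = 1.8e-09), and its other probe by 5.38. Birc5 encodes survivin, which acts at the mitotic spindle and against caspases, and it rose by 6.39 ± 0.34 (adjusted p = 5.2e-09), with 3 probes between 6.19 and 6.58. Ctrb1 encodes a pancreatic chymotrypsinogen, and it rose by 5.84 ± 0.26 (adjusted p = 1.1e-09). Cxcl16, a membrane-bound chemokine and scavenger receptor, rose by 5.67 ± 0.23 (adjusted p = 3.5e-10), from levels of -1.78 to -1.72 in normal podocytes to 3.22, 3.65, 4.30 and 4.46. The ranking took only genes whose groups did not overlap, so the lack of overlap in these 6 genes was a condition of entry.

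**Figure D2:**
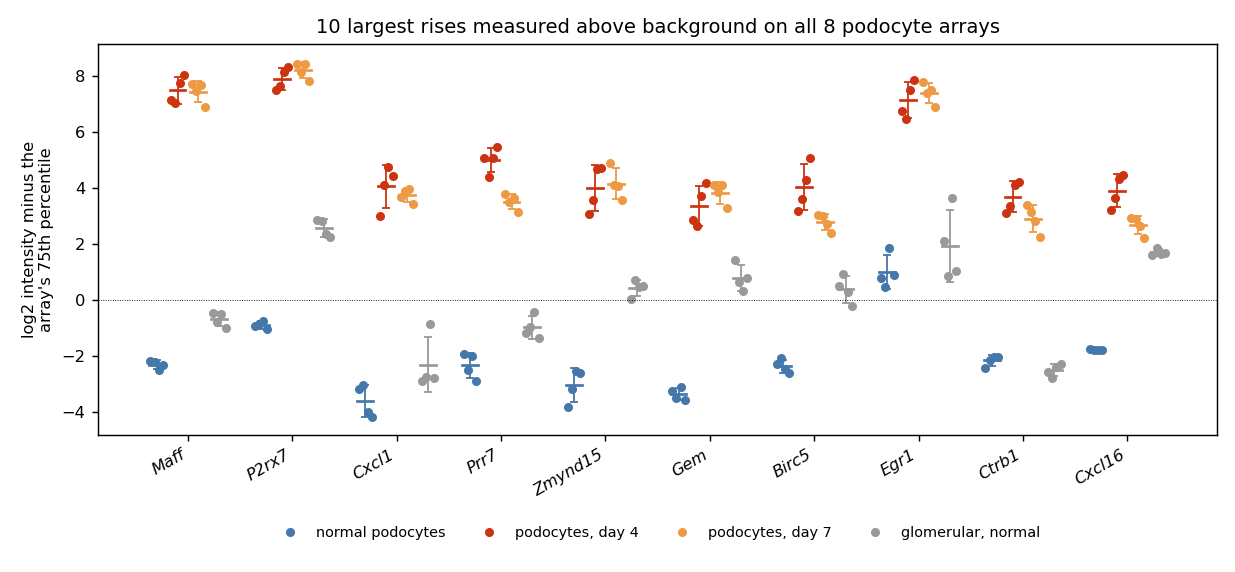
Log2 level (intensity minus the 75th percentile of the array) of the 10 genes with the largest rise, 1 point per array, with bars for the mean and SD of 4 arrays in normal podocytes, podocytes at day 4 and day 7, and glomerular RNA. Genes entered only where every day 4 point lay above every normal point of the same gene. Maff goes from at most -2.16 to at least 7.03.

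Some genes went from no signal above background on any normal array to a clear one on all 4 day 4 arrays, and for these only a lower bound of the rise can be given. The bound sets the day 4 mean against the higher of the gene's own normal reading and the dimmest probe above background. There were 220 such genes, 209 with a bound of at least 2-fold, 61 of at least 10-fold and 6 of at least 100-fold. Epha8, a receptor for ephrins, rose at least 1817-fold (adjusted p = 2e-12). Thbs4, a matricellular thrombospondin, rose at least 1083-fold (adjusted p = 1.4e-10). Tmprss9, a transmembrane serine protease, rose at least 783-fold (adjusted p = 1.5e-08). The other bounds above 100-fold belonged to Col22a1, a junctional collagen (at least 191-fold), Prl2a1, of the prolactin family (at least 176-fold), and Tmem151b (at least 109-fold). Of the 220 genes, 52 were well above background on all 4 glomerular arrays and 131 on none.

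The falls were shallow by comparison. Hoxd9, a homeobox gene, fell by 2.17 ± 0.23 on the log2 scale (adjusted p = 6.8e-06), from 1.19, 1.36, 1.15 and 0.37 to -1.91, -0.90, -0.94 and -0.86. Tfrc, the transferrin receptor that takes up iron, fell by 2.17 ± 0.18 (adjusted p = 4e-07), from 1.34, 0.89, 1.59 and 1.09 to -1.05, -1.06, -0.72 and -0.93. Psap, the precursor of the saposins that activate lysosomal lipid hydrolases, fell by 1.79 ± 0.19 (adjusted p = 8.3e-06). Its readings went from 6.41, 6.28, 6.13 and 5.88 to 4.92, 4.48, 3.92 and 4.23, the largest fall of a bright gene among those named. Rundc1 fell by 1.70 ± 0.12, Cacna2d2, a calcium channel subunit, by 1.63 ± 0.26, Lrmda by 1.56 ± 0.24 and Ccdc25 by 1.56 ± 0.13. For these genes too, lack of overlap between the groups was a condition of entry.

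Calls on 2 further falls among the 10 largest leaned on single arrays. Cyp26a1, which clears retinoic acid, fell by 1.94 ± 0.57 (adjusted p = 0.017), but without day 4 replicate 4 the difference was -1.50 (adjusted p = 0.0609). Wfdc1, a secreted protease inhibitor, differed by -1.75 ± 0.52 (adjusted p = 0.019), by -1.23 without normal replicate 2 and by -1.55 without day 4 replicate 1. Dusp26, a phosphatase, fell by 1.79 ± 0.49 (adjusted p = 0.011), from between 0.88 and 2.28 to between -1.09 and 0.18. Genes that were above background on every normal array and on no day 4 array numbered 17, and their bounds were small. Cenpa, the centromeric histone, fell at least 2.21-fold (adjusted p = 0.00061), Gm6787 at least 1.74-fold, Sfmbt2 at least 1.73-fold, Stac at least 1.68-fold and Foxe3 at least 1.53-fold. Kcnk3 fell at least 1.51-fold (adjusted p = 0.016), and without day 4 replicate 3 its difference was -1.08 (adjusted p = 0.0541). These 6 calls were lost with normexp background correction and the 75th percentile, where the differences lay between -0.21 and -0.02, and kept with normexp and quantile normalization.

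**Figure D3:**
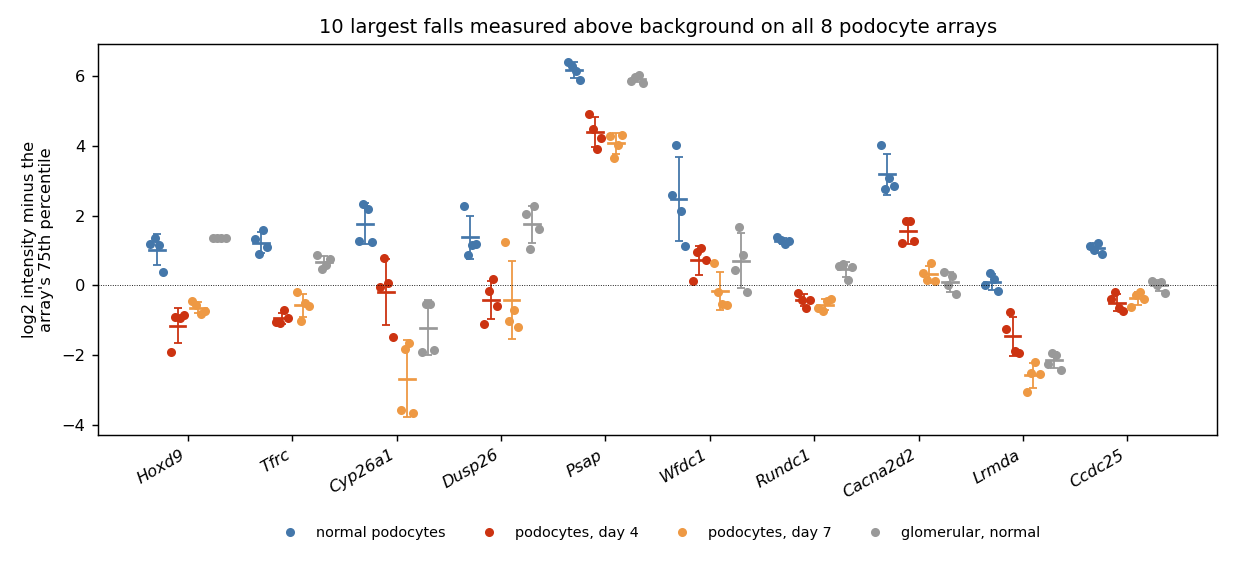
Log2 level (intensity minus the 75th percentile of the array) of the 10 genes with the largest fall, 1 point per array, with bars for the mean and SD of 4 arrays in each of the 4 groups. The day 4 points lie below the normal points of the same gene, which was a condition of entry, by 2.17 at most in the mean. Wfdc1 and Cyp26a1 show the widest spread.

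The rest of the description goes by gene lists, each given as its tested members, how many were called, and its median difference beside -0.14 over all genes, 12.1% called higher and 21.6% called lower. Of 52 lists, 25 kept the sign of their median under every scaling and with any array left out, and medians are given only for those. A listed gene was tested only if its probe was above background on all 4 arrays of some group, so a member dim in normal podocytes could enter through the group where it was high, and counts and medians describe the tested members alone. Where a member was above background on only some normal arrays, their number is given, and its difference rests partly on normal readings not above background. Of 360 called list members, 262 kept the call with any array left out, and the named members are mostly from these.

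Among immediate early transcription factors more members rose than in most lists. Of 12 AP-1 subunits and partners, 8 rose and 0 fell, with a median of 1.75. Fos read -1.56, -3.05, 0.36 and -2.43 in normal podocytes and 1.28, 1.12, 1.86 and 2.28 at day 4, a rise of 3.31 ± 0.71 (adjusted p = 0.0026). Fosb rose by 3.13 ± 0.42, Atf3, a stress-induced repressor of the ATF family, by 2.87 ± 0.33, and Batf, a partner of Jun best known in lymphocytes, by 2.66 ± 0.23, the last from a signal above background on 3 of 4 normal arrays. Fosl1 was above background on 2 of 4 normal arrays and on all at day 4 (3.08 ± 0.32). Jun rose by 1.56 ± 0.26 and Junb by 1.94 ± 0.31, whereas Jund, the constitutive member, differed by -0.04 and was not called.

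Of 23 Egr, Nr4a, Klf and other early genes, 15 rose and 2 fell, with a median of 1.20. Egr4, above background on no normal array, rose at least 51.1-fold. Egr2, above background on 1 normal array, read -5.27, -5.34, -3.39 and -4.61 and then 1.05, 0.76, 2.04 and 2.27. The orphan nuclear receptors moved as well: Nr4a3 rose at least 7.39-fold and Nr4a2 by 1.20 on the log2 scale. Nr4a1 read 3.06, 2.62, 6.00 and 3.19 and then 7.56, 6.74, 7.39 and 7.38, a rise of 3.55 ± 0.60 (adjusted p = 0.00048), with normal replicate 3 nearest to the day 4 arrays. Normal replicate 3 was also the highest of the normal arrays for Fos, Egr1, Egr2 and Myc. Myc, a driver of growth and ribosome production, was above background on 1 normal array and rose by 3.22 ± 0.38. Csrnp1 rose by 2.59 ± 0.20, Ier5 by 2.17 ± 0.32 and Ier2 by 1.40 ± 0.25. The other Ier5 probe differed by 0.95. Among the Klf and Id genes, Id3, an inhibitor of bHLH factors, fell by 0.97 and Klf4 differed by -0.04 without a call.

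Among small Maf factors and the Nrf2 pathway, which share DNA sites, the rise was confined to few of 18 members: 4 rose and 4 fell. Besides Maff, Mafk rose by 1.05 ± 0.17 (adjusted p = 0.00033) and Mafg by 0.75 ± 0.16 (adjusted p = 0.0026). Nfe2l2, which encodes Nrf2, differed by -0.07 ± 0.12 (adjusted p = 0.7). Of its target genes, Txnrd1 was called higher (0.52). Nqo1 (-0.28, adjusted p = 0.29), Hmox1 (0.39, adjusted p = 0.074) and Gclc (0.16, adjusted p = 0.21) were not called. With the median of the genes tested set to 0, Hmox1 (0.48) and Gclc (0.25) were called higher, and Hmox1 was called too without normal replicate 3 (0.56, adjusted p = 0.00483). Srxn1, a sulfiredoxin and another such target, fell by 0.76 ± 0.11 (adjusted p = 9.9e-05), and Bach1, a repressor at the same sites, fell by 0.54 ± 0.10.

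In stress kinase signalling the largest rises were in some activators upstream of p38 and JNK. Of 22 members 5 rose and 7 fell. The falls included Gadd45a (-0.76), Mapk8 (-0.74) and Mapk14 (-0.38), so the Gadd45 genes did not move together. Gadd45b, which activates a kinase above p38 and JNK, read 2.11, 2.80, 1.48 and 1.98 and then 6.68, 6.45, 7.31 and 7.50, a rise of 4.90 ± 0.27 (adjusted p = 7.6e-09). Gadd45g rose by 1.56 ± 0.18, the kinase Map3k8 by 1.55 ± 0.27 and Mapkapk3 by 0.98 ± 0.17. Feedback phosphatases moved too, with 5 of 15 higher and 1 lower. Dusp8, a phosphatase of JNK and p38, rose by 3.27 ± 0.30 (adjusted p = 1.2e-06), from 2.16, 1.13, 1.95 and 1.17 to 4.26, 4.38, 5.22 and 5.65. Dusp4, above background on 1 normal array, rose by 3.77 ± 0.39 and Dusp6 by 0.99 ± 0.18, whereas Spry1, an inhibitor of receptor kinase signalling, fell by 1.07 ± 0.20.

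Of 23 NF-kappaB subunits, inhibitors and regulators, 12 rose and 1 fell, with a median of 0.76. Members not called included Nfkb1 (0.09), Nfkbiz (0.64), Tnip1 (-0.06) and Traf1 (-0.31), and induction by NF-kappaB itself was not tested. Nfkbid, a nuclear inhibitor, was above background on 2 normal arrays and read -3.64, -3.97, -4.29 and -4.66, then 3.02, 2.97, 3.97 and 4.62 (7.78 ± 0.32, adjusted p = 5.1e-10). Bcl3, another nuclear member of that family, rose by 5.55 ± 0.45, and Tnfaip3, the deubiquitinase A20, by 3.47 ± 0.26. The non-canonical subunits Nfkb2 and Relb rose by 2.71 ± 0.20 and 2.64 ± 0.26, and Map3k14, their upstream kinase, by 1.53. Nfkbia, the cytoplasmic inhibitor, rose by 1.57 ± 0.22 and Birc3 by 2.38 ± 0.19. Rela, the main activating subunit, differed by 0.12 and was not called, and the kinase Ikbkb fell by 0.70. Of 16 decay factors of unstable messages 3 rose and 1 fell, among them Zc3h12a (2.01 ± 0.29) and Zfp36 (1.41 ± 0.27), which shorten the life of cytokine messages.

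Chemokines and cytokines followed, with a narrow set of members. Of 27 chemokines listed 17 were tested, and of these 8 rose and 0 fell, with a median of 0.81. Cxcl10, a ligand of activated T cells, read -1.10, -1.24, -0.70 and -0.93 and then 3.52, 3.40, 4.43 and 4.46 (4.94 ± 0.30, adjusted p = 1.9e-08). Ccl5 rose by 2.61 ± 0.39 and Ccl4 at least 3.27-fold. Cxcl9 was above background on no normal array and on 3 of 4 day 4 arrays (adjusted p = 8.1e-05). Ccl2, a monocyte attractant, was well above background on none of the 8 arrays. Of 28 cytokines listed 18 were tested, and of these 7 rose and 1 fell, with a median of 0.40. Ltb, the membrane anchor of lymphotoxin, was above background on 3 normal arrays and rose by 5.31 ± 0.43 (adjusted p = 4e-07). Tslp, an epithelial cytokine, read -3.69, -3.27, -3.17 and -0.80 and then 1.72, 1.85, 2.39 and 2.87 (4.94 ± 0.50, adjusted p = 4.2e-06). Il19, of the IL-10 family, rose at least 8.78-fold, and Csf1, the macrophage growth factor, by 1.78 ± 0.20. The 3 Csf1 probes differed by 0.45 to 1.78. Tnfsf15 rose by 1.62 ± 0.24. Il1b, like Ccl2, was well above background on none of the 8 arrays.

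Growth factor genes moved singly. Of 15 EGF family genes listed 8 were tested, and of these 3 rose and 2 fell, with a median of 0.59. Nrg1, a ligand of Erbb receptors, was above background on 2 normal arrays and read -3.54, -6.04, -4.39 and -3.62, then 2.58, 2.49, 3.45 and 3.45 (7.39 ± 0.48, adjusted p = 4.5e-08). Its co-receptor Erbb2 fell by 0.93 ± 0.15 and the ligand Tgfa by 0.90 ± 0.16, while Egfr rose by 1.40 ± 0.28. The 3 Egfr probes differed by 0.43 to 1.40. Of 17 VEGF, angiopoietin, FGF and PDGF ligands 4 rose and 2 fell. Vegfa, which podocytes supply to the glomerular endothelium, fell by 0.60 ± 0.15 (adjusted p = 0.0084), but the mean of all its probes differed by -0.37 (adjusted p = 0.077). Fgf9 rose by 1.03 ± 0.24. Of 23 TGF-beta family genes 3 rose and 4 fell. Inha, an inhibin subunit, rose at least 4.36-fold, Gdf15, a stress-induced hormone, by 2.66 ± 0.39 on the log2 scale and Tgfb2 by 1.53 ± 0.29.

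Of 17 purinergic receptors and ATP handling genes, 2 rose and 2 fell, and P2rx7 stood alone in size. P2rx5, another ATP-gated channel, rose by 1.17 ± 0.22 (adjusted p = 0.001), with normal arrays between -1.08 and -0.60 and day 4 arrays at -0.08, -0.07, 0.48 and 0.89. The falls of P2ry1, an ADP receptor, and of the ATP-release channel Panx1 each depended on single arrays. P2ry1 differed by -1.08 (adjusted p = 0.027) and lost its call without normal replicate 3 or 4 or day 4 replicate 2, 3 or 4, with -0.80 at the least. Panx1 differed by -0.78 (adjusted p = 0.025) and lost its call without normal replicate 1 or 2 or day 4 replicate 1, with -0.58 at the least. Of 21 Ephs and ephrins 8 rose and 3 fell. Besides Epha8, Efnb3 rose by 2.91 ± 0.22 from a signal on 1 normal array and Epha6 by 2.46 ± 0.40. Efna1 fell by 1.32 ± 0.28 and Efnb2 by 1.00 ± 0.18, and the other Efnb2 probe differed by -0.45. Of 19 TNF receptors 3 rose and 4 fell. Tnfrsf10b, a death receptor and p53 target, rose by 2.72 ± 0.19 (adjusted p = 9.1e-08) and Tnfrsf12a, the receptor of TWEAK, by 2.00 ± 0.24. Of 16 prostaglandin genes 0 rose and 1 fell.

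Genes of cell fate split. Of 26 p53 genes 10 rose and 6 fell. Cdkn1a, which encodes the cyclin-dependent kinase inhibitor p21, read -0.27, -0.52, -2.08 and -2.11 and then 3.16, 2.85, 3.47 and 2.99 (4.36 ± 0.50, adjusted p = 1.3e-05), and its other probe differed by 0.97. Plk3 rose by 2.80 ± 0.32, Phlda3, a brake on Akt, by 2.51 ± 0.18, Plk2 by 1.87 and Pmaip1, the proapoptotic Noxa gene, by 1.27 ± 0.27. Ei24 fell by 1.09 ± 0.11 and Ddb2, of nucleotide excision repair, by 0.62 ± 0.11. Of 14 Bcl2 family genes 3 rose and 3 fell, with a median of -0.26. The rises were Pmaip1, Bok (0.84) and Bax (0.50). The falls were Bik (-1.25), Bmf (-1.01) and the prosurvival gene Bcl2l2 (-0.74 ± 0.10, adjusted p = 6.5e-05). Of 19 genes of caspases, necroptosis and the inflammasome 0 rose and 6 fell, including Casp6 (-0.49 ± 0.10), Casp9 (-0.38 ± 0.10) and Apaf1 (-0.72 ± 0.20).

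Some mitotic genes rose and others did not. Of 30 cell cycle genes 9 rose, 5 fell and 16 were not called, among them Cdk1 (-0.35), Aurka (-0.22), Cdc20 (-0.08) and Foxm1 (0.24). Ccna2, cyclin A2, was above background on 1 normal array and read -5.27, -4.36, -5.15 and -6.16, then -1.25, -1.28, -0.68 and -0.34 (4.34 ± 0.37, adjusted p = 7.2e-07). Ccnb2 rose by 2.94 ± 0.39 from a signal on 2 normal arrays, Kif20a, a kinesin of cytokinesis, by 2.79 ± 0.35, and Plk1 by 2.42 ± 0.29 from a signal on 3. The proliferation marker Mki67 read -3.80, -2.99, -3.42 and -4.17 and then -4.34, -4.05, -4.00 and -4.72. Its difference of -0.68 ± 0.49 was not called (adjusted p = 0.3). These day 4 readings lay near the dimmest probes above background on the same arrays (-4.40, -4.45, -4.22 and -4.41). Cdk2 fell by 0.83 ± 0.15. Of 8 cyclin-dependent kinase inhibitors 1 rose, Cdkn1a, and 2 fell, among them Cdkn1b, p27 (-0.62 ± 0.16). Cdkn1c, p57, which is bright in podocytes, differed by 0.17 ± 0.13 and was not called.

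Of 26 targets of the integrated stress response 5 rose and 3 fell. Ppp1r15a, the phosphatase subunit Gadd34 that restores translation, read 3.51, 3.54, 3.55 and 3.09 and then 5.55, 5.89, 6.54 and 6.39 (2.67 ± 0.22, adjusted p = 4e-07). Psat1, of serine synthesis, rose by 1.88 ± 0.25 and Atf5 by 1.37 ± 0.23. Atf4 itself differed by 0.34 ± 0.20 (adjusted p = 0.21) and Ddit3, the CHOP gene, by 0.07 ± 0.25 (adjusted p = 0.87). Of 21 chaperones and folding enzymes of the endoplasmic reticulum 0 rose and 7 fell, with a median of -0.47. The list mean, set to 0 for normal podocytes, read 0.28, 0.35, -0.33 and -0.3 on the normal arrays. At day 4 it read -0.52, -0.41, -0.59 and -0.37, so normal replicates 3 and 4 lay close to the day 4 arrays. Pdia4 fell by 1.02 ± 0.20 (adjusted p = 0.0013), and Calr, P4hb, Dnajb11 and Pdia6 fell by 0.66, 0.65, 0.65 and 0.62. Hspa5, the main chaperone there, differed by -0.38 ± 0.24 and was not called. Of 18 cytosolic heat shock genes 2 rose, Hspa4 (0.94 ± 0.09) and Dnajb4 (0.92 ± 0.13), and 2 fell, among them Hspb8 (-0.92 ± 0.16).

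The gene of the toxin's substrate was not called: Eef2 read 6.50, 6.58, 6.33 and 6.49 in normal podocytes and 6.42, 6.33, 6.29 and 6.41 at day 4, a difference of -0.11 ± 0.09 (adjusted p = 0.38). The 16 genes of elongation, termination and of diphthamide, the modified residue that the toxin targets, counted 2 higher and 2 lower. Of 30 ribosome biogenesis genes 10 rose and 3 fell. Gnl3, nucleostemin, rose by 1.66 ± 0.22, Nop58, of the box C/D particles, by 1.58 ± 0.16, and Npm1, nucleophosmin, by 0.87 ± 0.13. Nop16 fell by 1.02 ± 0.12. When the median of all probes of each array was set to 0, the counts were 3 higher and 5 lower. Of 35 proteasome and ubiquitin genes 0 rose and 7 fell, none by as much as 2-fold, with Psmb7 at -0.59 ± 0.11.

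The lysosome was one of the lists with the most falls. Of 31 members 15 fell and 2 rose, with a median of -0.32, and 23 and 11 fell when the median of all probes or of the genes tested was set to 0. After Psap, the heparan sulfate glucosaminidase Naglu fell by 0.95 ± 0.11 (adjusted p = 1.9e-05) and the cholesterol carrier Npc2 by 0.84 ± 0.10. The ceramidase Asah1 fell by 0.75 ± 0.13 on the probe used, and its other probe differed by 0.07. Hexa, a hexosaminidase subunit, went the other way, from 4.67, 4.57, 4.47 and 4.14 to 5.07, 5.15, 5.64 and 5.84 (0.96 ± 0.17, adjusted p = 0.00085). Lamp1, a major membrane protein of lysosomes, differed by -0.03 ± 0.08 and was not called. Of 22 autophagy genes 11 fell and 1 rose, with a median of -0.29. Wipi1 fell by 0.84 ± 0.14, Atg4b, which processes LC3, by 0.81 ± 0.10, and Pik3c3, the class III phosphoinositide kinase, by 0.81 ± 0.14. The other Wipi1 probe differed by -0.42.

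Of 17 iron genes 4 rose and 1 fell, the faller being Tfrc, whose 3 probes differed by -2.17 to -0.73. Ftl1, the ferritin light chain that stores iron, rose by 0.73 ± 0.12 (adjusted p = 0.00042), from 6.98, 6.81, 6.59 and 6.72 to 7.46, 7.22, 7.52 and 7.82. Steap1, a metalloreductase, rose by 0.82 ± 0.23. Hamp, which encodes the iron hormone hepcidin, was above background on no normal array and on 2 of 4 day 4 arrays (adjusted p = 0.0015). Of 22 glycolysis genes 3 rose and 6 fell, with a median of -0.13. Eno2, the neuronal enolase, rose by 4.22 ± 0.21 (adjusted p = 3.5e-09) and the glucose transporter Slc2a3 by 2.94 ± 0.35, while the housekeeping enzymes Pgk1 and Tpi1 fell by 0.48 ± 0.12 and 0.43 ± 0.11. Of 24 cholesterol genes 2 rose and 6 fell, with a median of -0.12, among them the last enzyme of synthesis, Dhcr7 (-0.73 ± 0.17). Of 39 oxidative phosphorylation subunits 0 rose and 6 fell, with a median of -0.14, the same as over all genes.

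**Figure D4:**
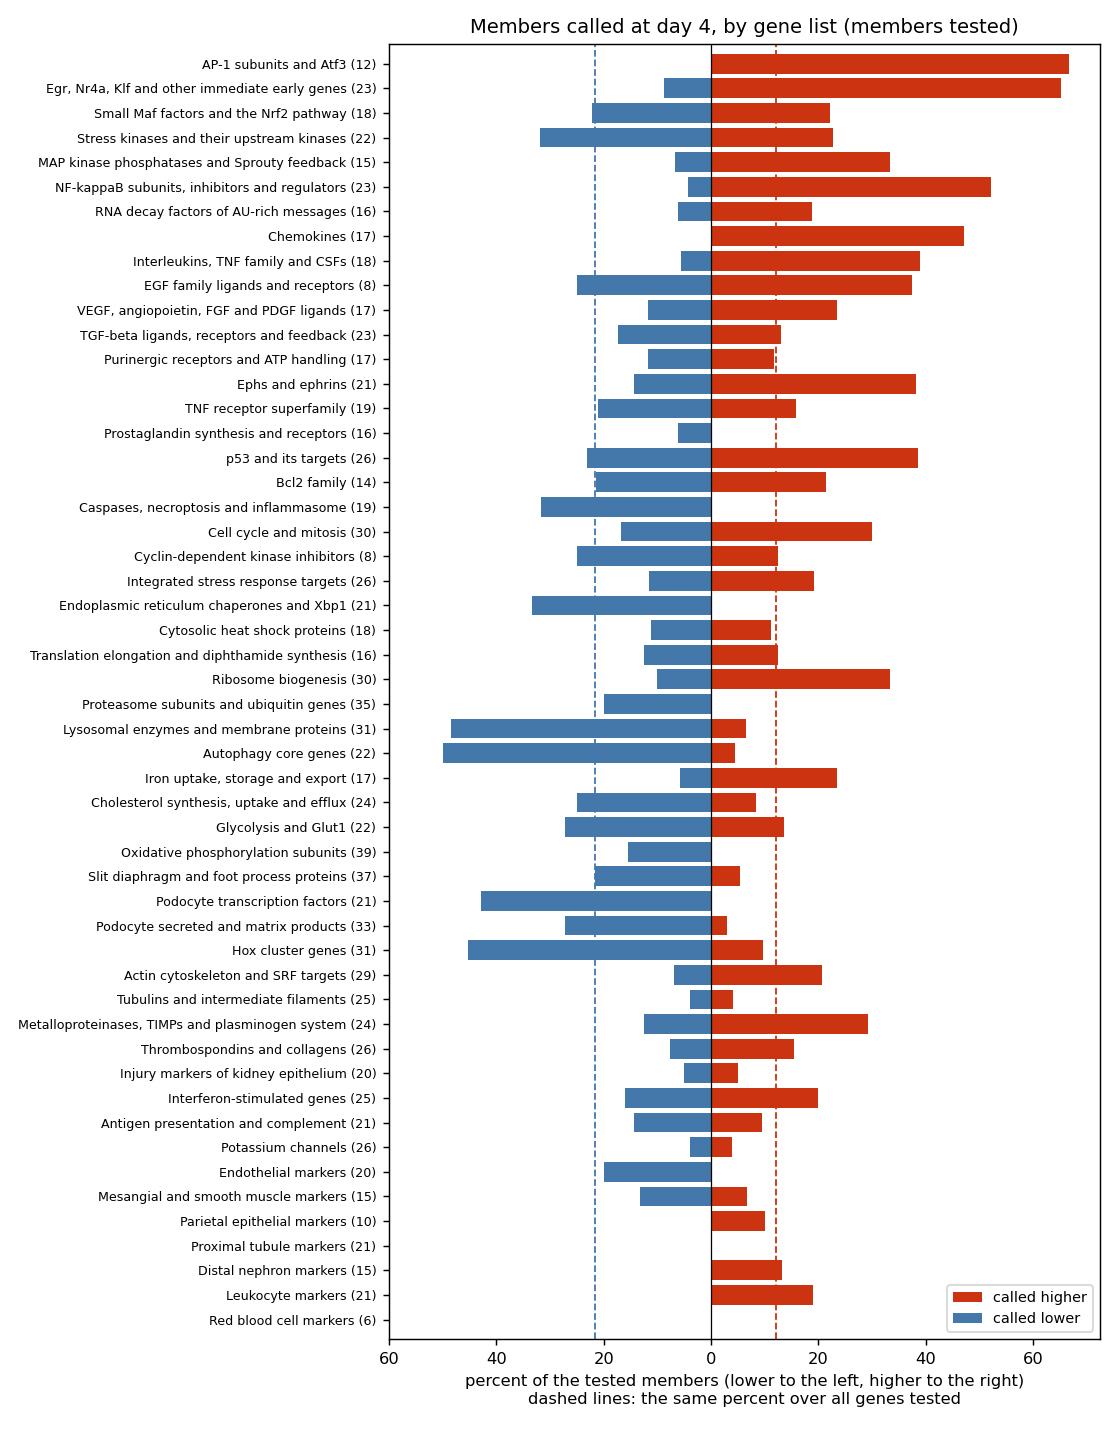
Percent of tested members of each of 52 gene lists called higher (red, right) or lower (blue, left) at day 4, with the number tested in parentheses and dashed lines at the percent over all genes (12.1% and 21.6%). The AP-1 and Egr lists reach farthest to the right, and the lysosome, autophagy, Hox and podocyte transcription factor lists farthest to the left. The Hox and podocyte transcription factor lists share members.

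Of 37 slit diaphragm and foot process genes 8 fell and 2 rose, with a median of -0.16; that share of falls was 21.6%, the same as over all genes. Nphs1, the nephrin gene that also drives Cre here, read 8.22, 8.13, 7.96 and 7.75 and then 7.39, 7.60, 7.48 and 7.32, a fall of 0.56 ± 0.16 on the log2 scale (adjusted p = 0.012). Podxl, a sialomucin of foot processes, fell by 0.67 ± 0.12 (adjusted p = 0.00095) and the adaptor Nck2 by 0.67 ± 0.13. Synpo, an actin regulator of foot processes, differed by -0.41 ± 0.12 (adjusted p = 0.021), and its call was lost without day 4 replicate 3 (-0.32) or 4 (-0.38), with the mean of its probes (-0.24) and with the median of the genes tested set to 0 (-0.32). Of 21 podocyte transcription factors 9 fell and 0 rose, with a median of -0.27. The largest of these falls, Hoxd9 (-2.17), Hoxb7 (-0.93) and Hoxd8 (-0.71), are counted again among the Hox genes below. Wt1 differed by -0.17 ± 0.10 (adjusted p = 0.21), and was called lower only with array medians set to 0 (-0.41). Foxd2, a forkhead factor, fell by 0.63 ± 0.11.

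Of 33 secreted and basement membrane products of podocytes 9 fell and 1 rose, with a median of -0.28. The laminin chains parted: Lama5 rose by 0.81 ± 0.15 (adjusted p = 0.0011) and Lamb2 fell by 0.71 ± 0.13 (adjusted p = 0.0011), although they join in 1 trimer of the basement membrane. Plat, tissue plasminogen activator, fell by 0.78 ± 0.16 and Cr1l, a complement regulator, by 0.68 ± 0.11.

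Hox genes fell more often than most lists, with 14 of 31 lower, 3 higher and a median of -0.43. The falls were counted by cluster as 1 of 10 in HoxA, 6 of 8 in HoxB, 3 of 7 in HoxC and 4 of 6 in HoxD. Along HoxB, the genes Hoxb3, Hoxb4, Hoxb5, Hoxb6 and Hoxb7 fell by 0.43, 1.23, 0.93, 0.79 and 0.93. Hoxb2 differed by -0.75 (adjusted p = 0.034), a call lost without normal replicate 2 or 3 or day 4 replicate 2 or 3, with -0.62 at the least, and with the median of the genes tested set to 0 (-0.66). The next genes of the cluster rose instead: Hoxb8 read -3.14, -3.59, -2.96 and -3.04 and then -1.22, -1.76, -2.17 and -2.23 (1.34 ± 0.30, adjusted p = 0.0039), and Hoxb9 rose by 0.77 ± 0.20 (adjusted p = 0.0074). In HoxD, Hoxd9 and Hoxd10 fell by 2.17 and 1.31 and Hoxd8 by 0.71 ± 0.13. Adjacent Hox genes can share transcripts, and which transcript a probe read was not tested.

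Cytoskeletal and matrix genes changed in few but large steps. Of 29 actin and SRF genes 6 rose and 2 fell. Rnd1, a GTPase that loosens stress fibres, rose by 3.91 ± 0.33 (adjusted p = 5e-07), the smooth muscle actin gene Actg2 at least 4.16-fold, and Tagln by 1.59 ± 0.25. Of 25 tubulins and intermediate filaments 1 rose, Tubb3, by at least 3.70-fold, and 1 fell, Krt7, by 1.19 ± 0.22. Of 24 proteases and inhibitors of matrix turnover 7 rose and 3 fell. Plg, plasminogen, rose at least 3.13-fold, the inhibitor Timp1 by 1.73 ± 0.32, and Mmp14, a membrane-bound collagenase, fell by 0.92 ± 0.20. Of 26 matricellular proteins and collagens 4 rose and 2 fell. After Thbs4, Col7a1, of anchoring fibrils, rose by 3.72 ± 0.37 (adjusted p = 3.2e-06) and Col16a1 by 1.64 ± 0.25, while Col18a1, which yields endostatin, fell by 0.75 ± 0.17.

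Of 20 injury markers of kidney epithelium 1 rose and 1 fell: Icam1, a leukocyte adhesion molecule, rose at least 12.1-fold (adjusted p = 4e-07). Lcn2, a marker of tubular injury, differed by 0.13 ± 0.14 (adjusted p = 0.52). Of 25 interferon-stimulated genes 5 rose and 4 fell. Isg20, an exonuclease, rose by 5.16 ± 0.20 (adjusted p = 3e-10), Irf1, a transcription factor that NF-kappaB also induces, by 2.56 ± 0.29, and Isg15 by 1.73 ± 0.29. Oas1a, a sensor of double-stranded RNA, fell by 1.07 ± 0.26. Of 26 potassium channels 1 rose and 1 fell, Kcnk6 by 1.55 ± 0.30. Of 21 antigen presentation and complement genes 2 rose and 3 fell.

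Markers of other cells were low on all 8 podocyte arrays compared with glomerular RNA, and they did not separate the groups evenly. The mean of 20 endothelial markers, set to 0 for normal podocytes, ran from -0.33 to 0.36 on the normal arrays, read 0.11, -0.88, -0.63 and -0.51 at day 4, and ran from 3.98 to 4.27 in glomerular RNA. Of these markers 4 fell and 0 rose, among them Tek (-1.39 ± 0.30) and Emcn (-1.06 ± 0.26). Of 15 mesangial markers 1 rose and 2 fell, with day 4 means between -0.56 and -0.09 and glomerular means between 2.98 and 3.61. Day 4 replicate 1 stood above the other day 4 arrays for 21 proximal tubule markers (1.44, then -1.77, -1.39 and -0.56), 6 red blood cell markers (1.40, then -1.19, -0.90 and -1.66) and 21 leukocyte markers (0.96, then 0.23, 0.14 and -0.21). In the tubule and red cell lists 0 markers were called, and in the leukocyte list 4 were called higher and 0 lower. C1qa, a macrophage marker, was above background on no normal array and on 1 of 4 day 4 arrays. The call of C1qa was lost with normexp and quantile normalization (0.28, adjusted p = 0.172). Of 10 parietal markers 1 rose, and of 15 distal nephron markers 2 rose. The part of other cells in single results was not tested.

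**Figure D5:**
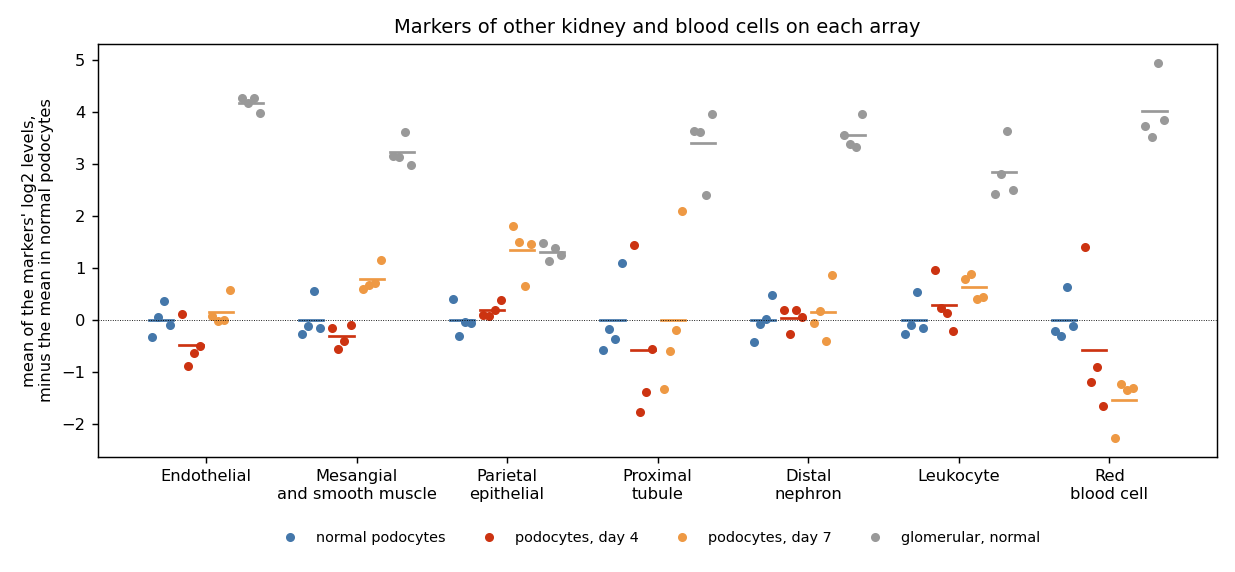
Mean of the log2 levels of each marker list of another cell type on each array, minus the mean over normal podocyte arrays, with points for single arrays and lines for the mean of 4. Glomerular arrays stand highest for all lists but the parietal one, where they overlap the day 7 podocytes, and day 4 replicate 1 is the high day 4 point for tubule, red cell and leukocyte markers.

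Set beside the later time, most rises at day 4 were not called different at day 7. Between day 7 and day 4, 4741 of the 14575 genes (32.5%) were called in either direction. Of the 998 rises, 131 were called closer to normal at day 7, 276 further from it, and 591 were not called. Of the 211 falls the counts were 38, 32 and 141. These genes were chosen by their day 4 difference, and the same day 4 arrays enter the day 7 contrast, which favours movement towards normal. Maff differed by -0.05 between day 7 and day 4 and P2rx7 by 0.32, with no call. Among the genes named above, P2rx5 was 4.25 higher at day 7 than at day 4 (adjusted p = 1.8e-08) and Timp1 4.74 higher (adjusted p = 2.1e-07). Nr4a1 was 2.13 lower on the log2 scale (adjusted p = 0.015). Wt1, not called at day 4, was lower at day 7 by 0.82 (adjusted p = 3.5e-05).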

How the data were processed

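Podocyte RNA from polysomes precipitated through the HA tag, or glomerular RNA from polysomes not precipitated, was hybridised as Cy3-labelled cRNA on 16 arrays, per the labels' protocols. Per the file headers, the deposited scanner files come from Agilent Feature Extraction 11.5.1.1 and hold a linear processed intensity for each spot, already background-subtracted and detrended, with 0 or 1 flags, and no normalization between arrays. The authors' deposited value table (39430 probes) is on a log2 scale, differs from the scanner intensities by a constant per column whose origin is not given in the sources used here, and served as an alternative. Its column medians ran from -3.17 to -2.51, and 6 columns matched another replicate of the same group. Among these, the columns of normal podocyte replicates 1, 2 and 3 matched the scanner files of replicates 2, 3 and 1. Replicate numbers given here are those of the scanner files.

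Here control spots and spots marked as outlying were left out, spots of a probe were averaged (55681 probes), and the 75th percentile of each array was subtracted from the log2 intensity. Accessions matched to RefSeq gave 26582 probes 1 symbol and left 29099 unnamed. A probe entered if some group had it well above background on each of its 4 arrays, and where a gene had several, the brightest on average stood for it. Probes of a gene had 1 sign in 77.6% of the 1231 called genes with several probes. The linear model took all 16 arrays and no covariate besides group, leaving 12 residual degrees of freedom; it ran in limma 3.58.1 under R 4.3.3, with Python 3.11.15 for reading, and was tested on simulated data.

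Named genes are the 4 given markers, the 10 largest rises and 10 largest falls measured on all 8 arrays without overlap, the 6 largest bounds each way, leading and best known members of each list, and the neighbours of the markers. Members and lists were chosen with earlier results of these data known, and list members whose call needed a single array were mostly counted without being named, a limit set after values were seen. By the scanner files' replicate numbers the arrays showed no pairing (correlations of deviations -0.358, 0.082, 0.058 and -0.095). Pairing by the numbers of the deposited table was not tested. The number of arrays limits the precision. Other scalings, backgrounds, filters, probe rules and left-out arrays were tried.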

Additional observations from a re-analysis of the deposited data

Results flagged for a closer look

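In 8 groups of 4 arrays, out of 170 examined over genes and lists, 1 array stood apart from the other 3 by more than Dixon's limit for the gap over the group's whole range, which chance gives in about 1 in 20 groups. Hoxd9 at day 4 read -1.91 on replicate 1, below the other 3 arrays. The rest were list means, set to 0 for normal podocytes. Normal replicate 3 was high for the Egr and early gene list (0.43), the purinergic list (0.39) and the caspase list (0.24). Normal replicate 1 was high for oxidative phosphorylation (0.22), normal replicate 2 low for the EGF family (-0.41) and normal replicate 4 low for the p53 list (-0.15). Day 4 replicate 2 stood at -0.04 for the TNF receptors.

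In 13 of the 32 genes named by size or as markers, day 7 differed from day 4 by limma's contrast of both groups. Choice by the size of the day 4 difference favours values nearer to normal at day 7. The rises of Prr7 (-1.48, adjusted p = 9e-04), Birc5 (-1.24, adjusted p = 0.012), Ctrb1 (-0.79, adjusted p = 0.033), Cxcl16 (-1.23, adjusted p = 0.0011) and Epha8 (-1.22, adjusted p = 0.009) were smaller at day 7, and that of Thbs4 was larger (2.16, adjusted p = 0.0021). The falls of Cyp26a1 (-2.49, adjusted p = 0.0044), Cacna2d2 (-1.23, adjusted p = 0.0026) and Lrmda (-1.12, adjusted p = 0.0034) were deeper. Those of Cenpa (1.35, adjusted p = 0.0043), Sfmbt2 (1.54, adjusted p = 0.0047), Stac (1.38, adjusted p = 0.042) and Kcnk3 (1.32, adjusted p = 0.014) were shallower.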

How the results depend on the processing

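Genes called lower numbered 5810 after centring arrays on their medians, 2085 with the median of the genes tested set to 0 (chosen after seeing the data) 2630 with the 8 arrays fitted alone and 1199 with the replicate block in those 8 arrays, against 3155. The counts of 2-fold changes moved with the background correction and the filter: 490 higher and 66 lower with normexp and the 75th percentile, 477 and 31 with normexp and quantile normalization, and 466 higher when only genes above background on all 8 arrays were used. The 2-fold falls also numbered 658 with array medians set to 0 and 111 with the median of the genes tested. Leaving out 1 array gave 1498 to 1737 genes higher and 2292 to 3176 lower, and 912 to 1043 and 169 to 274 at 2-fold. The cause of these shifts was not tested. Of the 32 genes named by size or as markers 0 changed direction and 23 kept their call in all settings run. The 6 falls given as bounds lost it under normexp with the 75th percentile, and the replicate block lost 5 (Dusp26, Wfdc1, Sfmbt2, Stac and Kcnk3). Named list members that lost a call with a left-out array, another scaling or another probe rule are mostly given with those values above. The replicate block, which used the scanner files' replicate numbers, lost further calls, though the arrays showed no pairing by those numbers. Among them were those of Anapc5, Apaf1, C1qa, Casp9, Cdkn1b, Dnajb11, Emcn, Hexa, Hoxb3, Hoxb9, Kcnk6, Mafg, Psmb7, Steap1, Tek and Tpi1. A fit with the slide as a term could not be fitted, since each slide held injured or uninjured mice only. Genes above background on no array of a group have only bounds, which limits the size of the largest rises.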
